A study of Lolium arundinaceum with 18 samples.

Results

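Cellulose synthases and callose synthases are the enzymes that link glucose from UDP-glucose into the glucans of plant walls. In the leaves of tall fescue studied here, 75 of 109684 assembled unigenes carried a description naming a cellulose synthase or a callose synthase, and membership rests on that wording. A unigene is a group of transcripts that the assembly treats as 1 gene. Of the 75, 28 were callose synthases, 14 were catalytic subunits of cellulose synthase (CesA), 30 were cellulose synthase-like (Csl) unigenes and 3 were described as CELLULOSE SYNTHASE INTERACTIVE. The Csl unigenes were 13 of family E, 5 of D and 3 each of C, F, G and H.

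Tall fescue (Festuca arundinacea) is a turf and slope grass, and poly(A) RNA of its functional leaves was sequenced in 6 groups of 3 libraries each. Soil water was kept at 65 to 75% of field capacity for CK plants, which were sprayed with double-distilled water, and at 35 to 45% (drought) for DS plants. Foliar silicon nanoparticles (300 mg/L) gave the groups Si NPs at the higher and DS_Si NPs at the lower water content, and cellulose nanocrystals (100 mg/L) gave CNCs and DS_CNCs in the same way, with leaves taken after 20 days. The surfactant Tween-20 (0.05%) is described for the particle solutions only and no spray is named for DS, so the particle cannot be told apart from the surfactant nor, under drought, from being sprayed. The labels do not say what separates the 3 replicates of a group, so p-values measure the spread between these libraries. Each unigene is known only by its best match in another species.

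CesA proteins assemble in the plasma membrane and extrude cellulose microfibrils. Csl proteins make other wall glucans: CslC the backbone of xyloglucan, CslD a cellulose-like glucan, and CslF and CslH the mixed-linkage glucan that is typical of grass walls. Callose is a different glucan, laid down quickly and removed again at plasmodesmata, cell plates, sieve plates and wounds, where it narrows or seals the passage between cells.

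The libraries held 16175624 to 26102122 estimated counts, of which the 75 unigenes took 0.0642 to 0.136%. Library CK 3 lay between CK 1 and CK 2 in 65.0% of 51110 tested unigenes with 3 different values, against 16.9 to 38.3% for the other 17 libraries in their own groups, and in 29 of 41 synthase unigenes. Calls of named unigenes against CK in the fit of all 18 libraries are therefore also given without CK 3. Leaf markers were high in every library: 95 unigenes for light-harvesting, photosystem and Rubisco small-subunit proteins summed to 69410 to 167700 TPM, a transcript level scaled for length and library size. In bulk leaves, fewer cells of a type and less RNA per cell cannot be told apart.

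Much of the set was assembled in pieces. The unigenes were 204 to 8170 bases long with a median of 418.0 bases, and 42 were shorter than 500 bases. A conserved protein domain of the CesA and Csl enzymes (Cellulose_synt) was annotated in 34 and that of callose synthases (Glucan_synthase) in 12, while 19 had no domain. Unigenes of 1 assembly cluster can be parts or copies of 1 gene, and 16 unigenes shared 6 such clusters. A callose synthase 2 by description (DN8295_c0_g1) had its Swiss-Prot match to a kinase, CRK6. Enough counts for a test were found in 43 unigenes, and the other 32, all shorter than 500 bases, averaged 0.377 to 3.69 TPM and supplied 9.79% of the summed level. The filter that passed the 43 needed only 1 group to be high.

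A callose synthase 3-like fragment (DN27966_c0_g1, 240 bases) averaged 47.1 TPM over the 18 libraries and was followed by callose synthase 3 (DN4465_c0_g1, 42.5 TPM), CslD2 (DN6654_c0_g1, 35.7), CslF3 (DN10375_c0_g1, 32.5), CslH1 (DN2843_c0_g1, 31.7) and CesA8 (DN2159_c0_g1, 24.2). These 6 unigenes supplied 51.9% of the summed level of all 75, and 11 unigenes averaged over 10 TPM. CslD2 was the steadiest of the 6 in relation to its mean, with an SD of 5.38 TPM over 18 libraries, whereas CslF3 ranged from 2.32 to 108 TPM with an SD of 32.3.

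The summed level of all 75 unigenes was 437 to 458 TPM in CK and 421 to 479 TPM in DS. As a share of estimated counts the 75 took 0.089 to 0.0998% in CK and 0.106 to 0.133% in DS, so on that scale DS lay above CK. In TPM, Si NPs, CNCs and DS_CNCs lay apart from both CK and DS, and DS_Si NPs overlapped them. The summed level was 285 to 369 TPM in Si NPs and 511 to 535 TPM in CNCs, so the well-watered groups did not overlap. Under drought it was 298 to 474 TPM in DS_Si NPs and 319 to 365 TPM in DS_CNCs, and only the latter lay clear of DS. The plot of summed levels by family shows that the families did not move together.

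**Figure D1:**
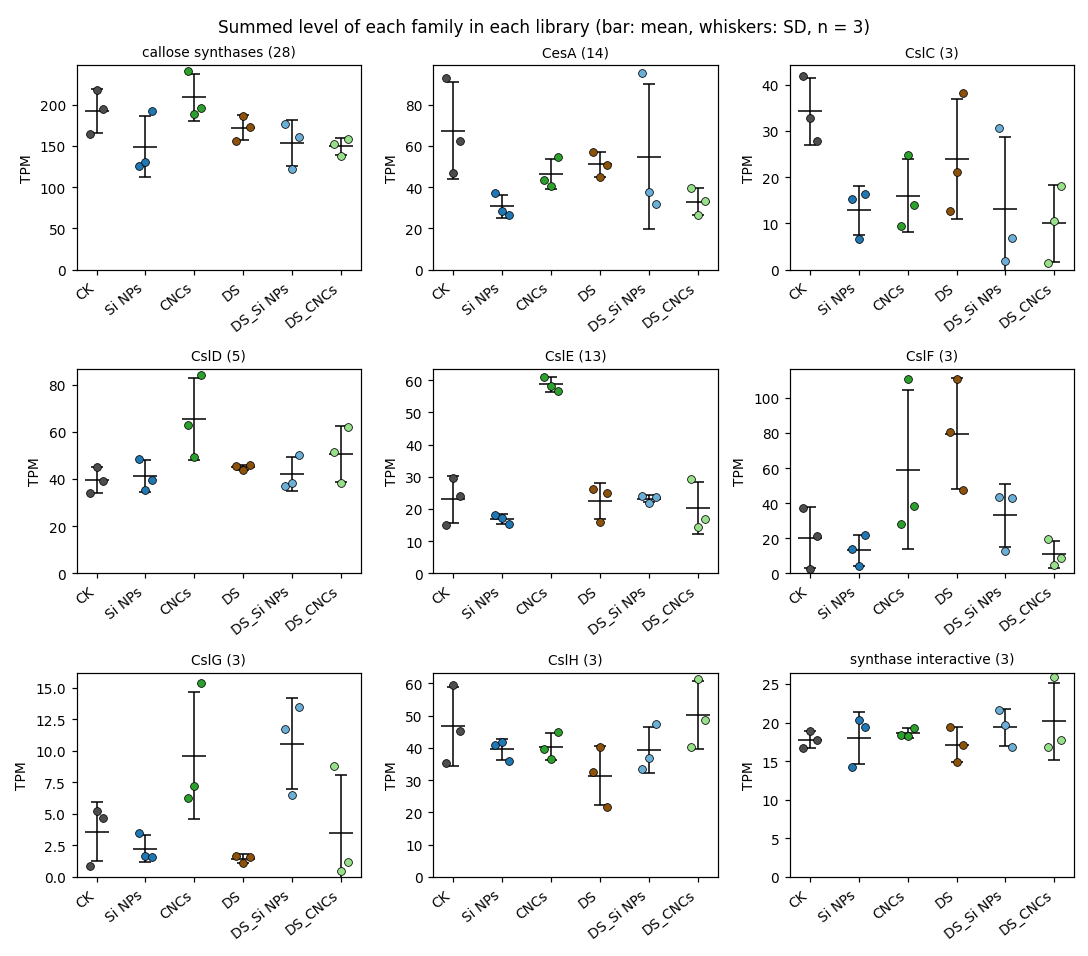
Summed level (TPM, linear axis) of the members of each family in every library, by group. Points are libraries, the bar is the mean and the whiskers are the SD of 3 libraries. CslE was 56.8 to 61.1 TPM in CNCs and at most 29.7 TPM in every other library, and CslF was 47.3 to 110.6 TPM in DS and 4.59 to 19.5 TPM in DS_CNCs.

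Every comparison used edgeR's quasi-likelihood test across 55979 unigenes. A unigene was called where p, adjusted over all of them by Benjamini and Hochberg's method, was under 0.05 and the scaled counts differed by over 2 log2 units. Unless another tool is named, adjusted p-values below are from that test, and each difference is the log2 fold change of scaled counts, second group over first, with its standard error (SE).

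Counts over the 43 tested unigenes are read against all 55979. In CK vs DS, 0 were called against 2.01% of all tested unigenes. Without adjustment 8 of the 43 (18.6%) had p below 0.05 against 19.6% of all. DESeq2 called 2 of the 43, while limma called 2 outside the 43, DN13932_c0_g2 and DN76516_c0_g1, which edgeR did not test. In CK vs Si NPs 1 was called (2.33%, against 1.03% of all) and 5 had an unadjusted p below 0.05, where 22.4% of all did. In CK vs CNCs 1 was called (2.33%, against 0.377%) and 9 had such a p (18.2% of all). Both calls were DN89480_c0_g1. In DS vs DS_Si NPs 2 were called (4.65%, against 3.39%) and 9 had an unadjusted p below 0.05 (25.8% of all). In DS vs DS_CNCs 1 was called (2.33%, against 5.80%) and 11 had such a p (29.1% of all). No reading of the set is drawn from counts of 1 or 2. The shares of all unigenes are those of edgeR's test, and none is given for DESeq2 or limma, which covered other numbers of unigenes.

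No unigene of the set passed edgeR's test in the 6 remaining comparisons. Si NPs vs CNCs gave 0 calls (0.0411% of all tested unigenes), with 4 unigenes at an unadjusted p below 0.05 (11.1% of all), 1 call by DESeq2 and 0 by limma. DS_Si NPs vs DS_CNCs gave 0 (0.00%), with 2 at such a p (9.22%) and 0 by DESeq2 or limma. Drought within a particle gave 0 in Si NPs vs DS_Si NPs (0.0197%), with 7 at such a p (11.5%) and 0 by DESeq2 or limma, and 0 in CNCs vs DS_CNCs (0.0411%), with 6 at such a p (13.4%), 0 by DESeq2 and 1 by limma. The interaction with drought gave 0 for Si NPs (0.263%), with 9 at such a p (16.0%), 1 by DESeq2 and 0 by limma. For CNCs it gave 0 (1.96%), with 7 at such a p (18.8%), 3 by DESeq2 and 1 by limma. That limma call was DN13932_c0_g2, which edgeR did not test.

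Callose synthases come first because they held all the calls. The 1 synthase called with both particles and under both water supplies was a callose synthase 3 of 520 bases (DN89480_c0_g1). Callose synthase 3 acts in Arabidopsis at plasmodesmata, where callose narrows the channel between cells. This piece was matched to callose synthase 1 in Swiss-Prot and carried the domain Vta1 rather than the glucan synthase domain, and it had 1 assembled transcript. Its level was 0, 0.1 and 0 TPM in CK and 0 in all 3 DS libraries. In Si NPs it was 10.2, 27.0 and 9.02 TPM, and in CNCs 11.2, 5.55 and 12.6 TPM. In DS_Si NPs it was 18.7, 27.0 and 20.8 TPM, and in DS_CNCs 14.0, 22.0 and 32.8 TPM. Every one of the 12 libraries with a particle lay above every one of the 6 without.

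Counts give the size of that gap. CK held 1 count in all, against 308 in Si NPs and 202 in CNCs, a ratio per library size of 350.0 (95% counting interval 62.4 to 13870) and 220.8 (39.2 to 8765). DS held 0 counts, and with a floor of 3 counts over the group the unigene was at least 169-fold higher in DS_Si NPs (508 counts) and at least 171-fold higher in DS_CNCs (543 counts). Intervals and floors cover counting error only. The adjusted p was 0.00352 for Si NPs, 0.00769 for CNCs, 0.00130 for DS_Si NPs and 0.000598 for DS_CNCs, each against its own control and higher in 3 of 3 libraries. Comparisons with 1 control share its libraries. The call against CK held for Si NPs without CK 3 (adjusted p = 0.0460) and was lost for CNCs without CK 3 (0.0735) or CK 1 (0.0525). Calls over all unigenes fell in the same fits. In CK vs Si NPs they went from 574 to 3 without CK 3. In CK vs CNCs they went from 211 to 4 without CK 3 and to 6 without CK 1. Fitted with the DS and DS_Si NPs libraries alone, the drought call for Si NPs was lost too (adjusted p = 0.109), while the levels stayed as far apart.

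The particles were not told apart at this unigene. Si NPs and CNCs had overlapping levels (log2 fold change -1.12, SE 0.55, adjusted p = 0.482), and so had DS_Si NPs and DS_CNCs (-0.17, SE 0.54, adjusted p = 0.963). DS_CNCs lay above CNCs in all libraries (1.49, SE 0.56, adjusted p = 0.290), which did not pass. Levels in all 12 particle libraries above all 6 others were found in 490 of the 55979 tested unigenes (0.875%), 1 of them a synthase, and the reverse in 107. In 4 tested unigenes all 6 libraries without a particle were under 0.5 TPM and all 12 with one were at or above 5 TPM, and the other 3 (DN3124_c1_g1, DN34949_c0_g1 and DN42335_c0_g1) had no description. Those cuts lie close to the values of DN89480_c0_g1 itself, at most 0.1 TPM without a particle and at least 5.55 TPM with one. The count of 4 therefore gives no measure of how rare its pattern is.

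**Figure D2:**
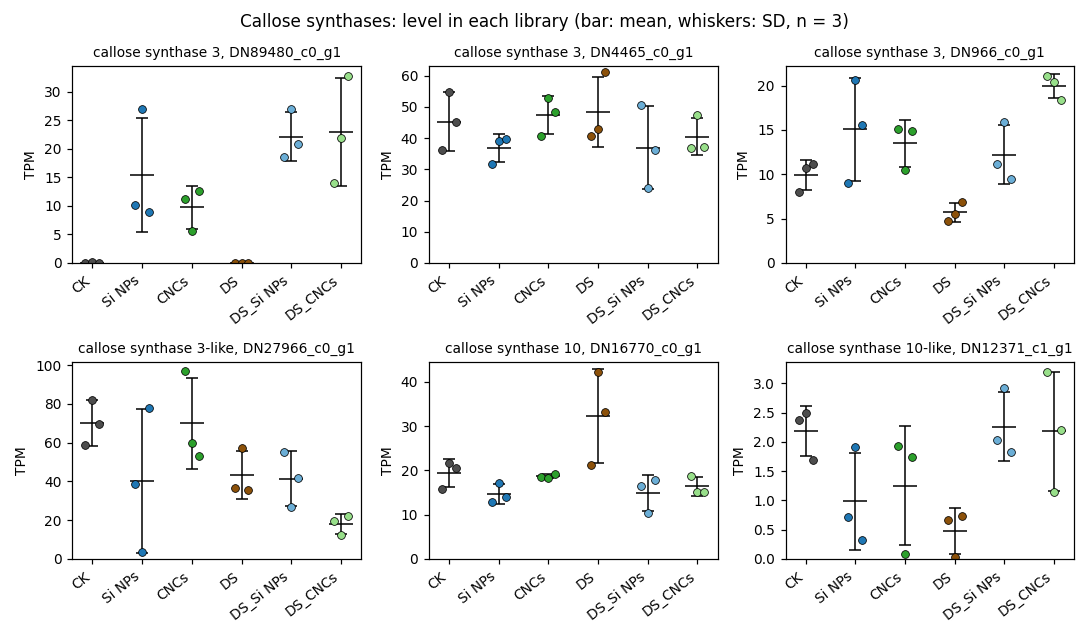
Level (TPM, linear axis from 0) of 6 callose synthase unigenes in every library, by group, with the mean as a bar and the SD of 3 libraries as whiskers. DN89480_c0_g1 is at or near 0 in CK and DS and at 5.55 to 32.8 TPM in the 12 particle libraries, while DN966_c0_g1 is lowest and DN16770_c0_g1 highest in DS.

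The long callose synthase 3 unigenes behaved differently from that fragment. DN4465_c0_g1 (6299 bases) was 36.0, 54.8 and 45.0 TPM in CK and 40.8, 42.8 and 61.1 TPM in DS, and it stayed between 24.1 and 52.7 TPM in the particle groups. Its groups overlapped between either control and its particle groups, and no comparison passed (adjusted p = 0.168 or more). DN966_c0_g1 (8170 bases), which no rule selected and which was named after its values were seen, was 4.77, 5.53 and 6.88 TPM in DS. It was 11.2, 15.9 and 9.50 TPM in DS_Si NPs and 21.1, 20.4 and 18.4 TPM in DS_CNCs. Both drought groups with a particle lay above DS in all 3 libraries.

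In scaled counts the difference of DN966_c0_g1 was smaller than in TPM. It was 0.74 (SE 0.16, adjusted p = 0.0218) for DS_Si NPs and 1.03 (SE 0.17, adjusted p = 0.00350) for DS_CNCs, past the p threshold and short of the fold threshold. On the log2 scale of TPM plus 0.5, limma gave 1.01 (adjusted p = 0.0802) and 1.73 (adjusted p = 0.00530). The unigene sums 32 assembled transcripts. Without any 1 of the 6 libraries the DS_CNCs difference kept an adjusted p of at most 0.0191, and the DS_Si NPs one was lost in 3 of 6 cases (adjusted p up to 0.0939) and in a fit on the compared libraries alone (0.131).

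Callose synthase 10, needed in Arabidopsis for the closing of cell plates, had the opposite order. DN16770_c0_g1 (6620 bases) was 21.3, 42.3 and 33.2 TPM in DS. It was 16.5, 10.3 and 17.9 TPM in DS_Si NPs, 18.8, 15.2 and 15.2 TPM in DS_CNCs and 15.8, 21.7 and 20.5 TPM in CK. DS lay above both drought groups with a particle in all libraries, and 2 of the 3 DS libraries lay above every CK library. The log2 fold changes were -1.15 (SE 0.25, adjusted p = 0.0207) for DS_Si NPs and -1.05 (SE 0.25, adjusted p = 0.0199) for DS_CNCs, again short of the fold threshold. Each lost its adjusted p in 2 of 6 fits with 1 library left out, up to 0.0894 and 0.0883, and in a fit on the compared libraries alone (0.165 and 0.108). The DS_CNCs one was also lost with limma on log2 TPM (0.0567).

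A shorter callose synthase 10-like unigene (DN12371_c1_g1, 1515 bases, Swiss-Prot callose synthase 9) was 0.670, 0.0300 and 0.730 TPM in DS and 2.03, 2.93 and 1.82 TPM in DS_Si NPs. It rose by 3.18 on the log2 scale (SE 0.89, adjusted p = 0.0485). The call did not hold without any 1 of the 6 libraries (adjusted p up to 0.168). In CK it was 2.37, 2.5 and 1.69 TPM and in DS_CNCs 3.19, 1.15 and 2.21 TPM, both above DS in all libraries, with adjusted p of 0.102 and 0.0609. DESeq2 called these 2 differences (adjusted p = 0.0174 and 0.0102) and the one for DS_Si NPs (0.00298). It also called the interactions of Si NPs and of CNCs with drought (0.0190 and 0.0215), which edgeR did not. On log2 TPM, limma called none of them. All 18 libraries were at or under 3.19 TPM.

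The fragment DN27966_c0_g1 was among the highest of all yet varied widely, from 3.68 to 77.9 TPM within Si NPs. It was 36.8, 57.5 and 35.4 TPM in DS and 19.6, 12.3 and 21.9 TPM in DS_CNCs, with no overlap and a difference that did not pass (-1.34, SE 0.68, adjusted p = 0.200). Another callose synthase 3-like unigene (DN21077_c0_g2, 1477 bases), also named after its values were seen, ranged from 0.0200 to 10.0 TPM within CK and from 0.0900 to 14.8 TPM within DS.

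**Figure D3:**
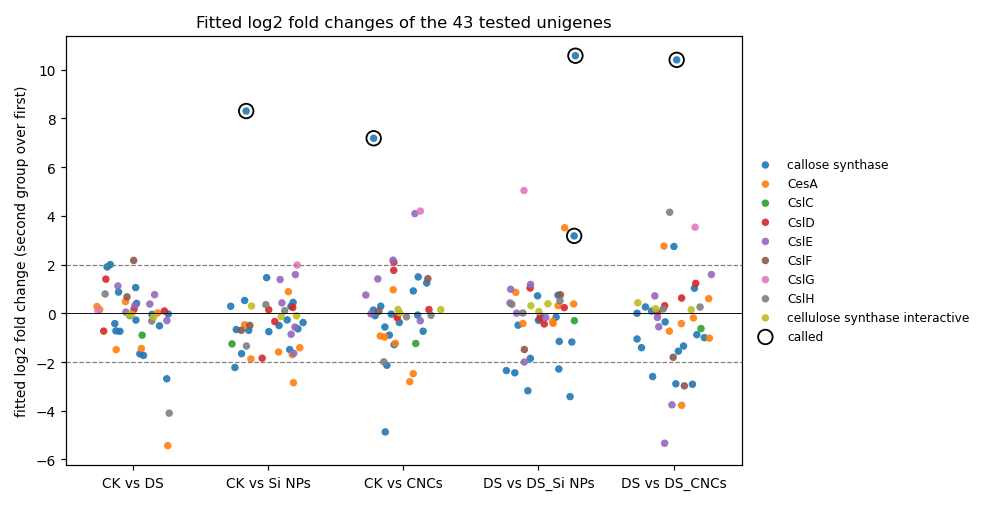
Fitted log2 fold change (linear axis) of the 43 tested unigenes in 5 comparisons, coloured by family, with calls ringed and dashed lines at 2 and -2. The ringed points are DN89480_c0_g1 in 4 comparisons, whose fitted size depends on the prior count because its controls hold 0 or 1 counts, and DN12371_c1_g1 in DS_Si NPs.

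CesA unigenes, the cellulose-making subunits, gave no call by edgeR in any comparison. In CK vs Si NPs 2 of the 7 tested were lower at an unadjusted p below 0.05, against 7.94% of all tested unigenes. CesA8 (DN2159_c0_g1, 3738 bases) was 34.1, 21.9 and 28.1 TPM in CK and 18.0, 17.2 and 17.6 TPM in Si NPs. It was 31.8, 30.1 and 27.1 TPM in DS and 23.6, 17.7 and 18.6 TPM in DS_CNCs. Neither pair of groups overlapped, at -0.47 (SE 0.23, adjusted p = 0.233) and -0.74 (SE 0.23, adjusted p = 0.0549).

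A cellulose synthase with no number (DN1755_c1_g1, 3507 bases) had its Swiss-Prot match to CESA4, in rice a subunit of secondary walls. It was 8.87, 4.47 and 6.25 TPM in CK and 1.72, 2.20 and 1.26 TPM in Si NPs (-1.70, SE 0.64, adjusted p = 0.147). CNCs, at 3.3, 3.17 and 2.31 TPM, also lay below CK (-1.24, SE 0.63, adjusted p = 0.313). In DS_Si NPs it was 17.6, 2.93 and 2.03 TPM, with 1 library far above the other 2.

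Among the other unnumbered subunits, DN34635_c0_g1 (273 bases, CESA5) was 17.3, 7.42 and 13.1 TPM in CK and 0, 0.570 and 0 TPM in DS (adjusted p = 0.113). DESeq2 called this difference, and so did edgeR on the CK and DS libraries alone (adjusted p = 0.0297 and 0.0341). DN8423_c0_g1 (CESA7) was 0.910 to 3.46 TPM in the 6 libraries without a particle and 2.89 to 7.67 TPM in the 12 with one. The particle groups lay above their control in all libraries except for CNCs against CK, and the 4 comparisons gave adjusted p of 0.250 to 0.396.

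The numbered subunits other than CesA8 averaged under 1 TPM. Of the secondary-wall subunits by rice numbering, CesA9 (DN70732_c0_g1, 240 bases) and CesA4 (DN72458_c0_g1, 266 bases) were not tested, and CesA4 DN28733_c0_g2 (1011 bases) was 0.5, 2.3 and 1.05 TPM in CK and 0.220, 0.0500 and 0.150 TPM in Si NPs (-2.85, SE 0.83, adjusted p = 0.0837). CesA1 (DN61043_c0_g1, Swiss-Prot CESA4), counted with growing walls by its number, was 0.610, 2.41 and 2.06 TPM in CK and 0.150, 0.360 and 0.260 TPM in CNCs (-2.81, SE 0.84, adjusted p = 0.110). DESeq2 called both, with adjusted p of 0.0157 and 0.0175. Of the 7 tested CesA unigenes, 6 had a negative fold change with Si NPs and 6 with CNCs against CK, where 53% and 54.1% of all tested unigenes had a positive one.

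The 3 interactive proteins, which in Arabidopsis tie the cellulose synthase complex to microtubules, were level. CELLULOSE SYNTHASE INTERACTIVE 3 (DN6009_c0_g1) lay between 9.93 and 21.3 TPM over all 18 libraries. Interactive 1 (DN25416_c0_g1) lay between 2.29 and 5.51 TPM, and the remaining one, 1-like (DN31303_c0_g1), averaged 1.19 TPM. None was called in any of the 11 comparisons or under any alternative run.

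CslF unigenes, the mixed-linkage glucan family, were led by CslF3 (DN10375_c0_g1, 2812 bases). It was 73.3, 106 and 42.5 TPM in DS and 18.8, 3.39 and 7.45 TPM in DS_CNCs, and the groups did not overlap. It was 31.6, 2.32 and 17.2 TPM in CK, below every DS library, and 27.7, 108 and 33.6 TPM in CNCs, above every DS_CNCs library. The fold changes were -2.98 for DS_CNCs against DS (SE 0.96, adjusted p = 0.0626), 2.17 for DS against CK (SE 0.93, adjusted p = 0.213) and -4.40 for the interaction of CNCs with drought (SE 1.32, adjusted p = 0.0849). DESeq2 called the first and the last (adjusted p = 0.00822 and 0.00975) and edgeR did not. DS_Si NPs, at 32.1, 8.02 and 37.7 TPM, lay below DS as well (-1.49, SE 0.91, adjusted p = 0.317).

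The second CslF unigene (DN16871_c0_g1, 2889 bases, a probable mixed-linked glucan synthase) stayed at or under 8.46 TPM. It was 8.46, 3.21 and 5.12 TPM in DS_Si NPs and 0.71, 1.2 and 0.97 TPM in DS_CNCs (-2.56, SE 0.93, adjusted p = 0.436). CslF6 was present only as an untested piece of 345 bases (DN58547_c0_g1).

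**Figure D4:**
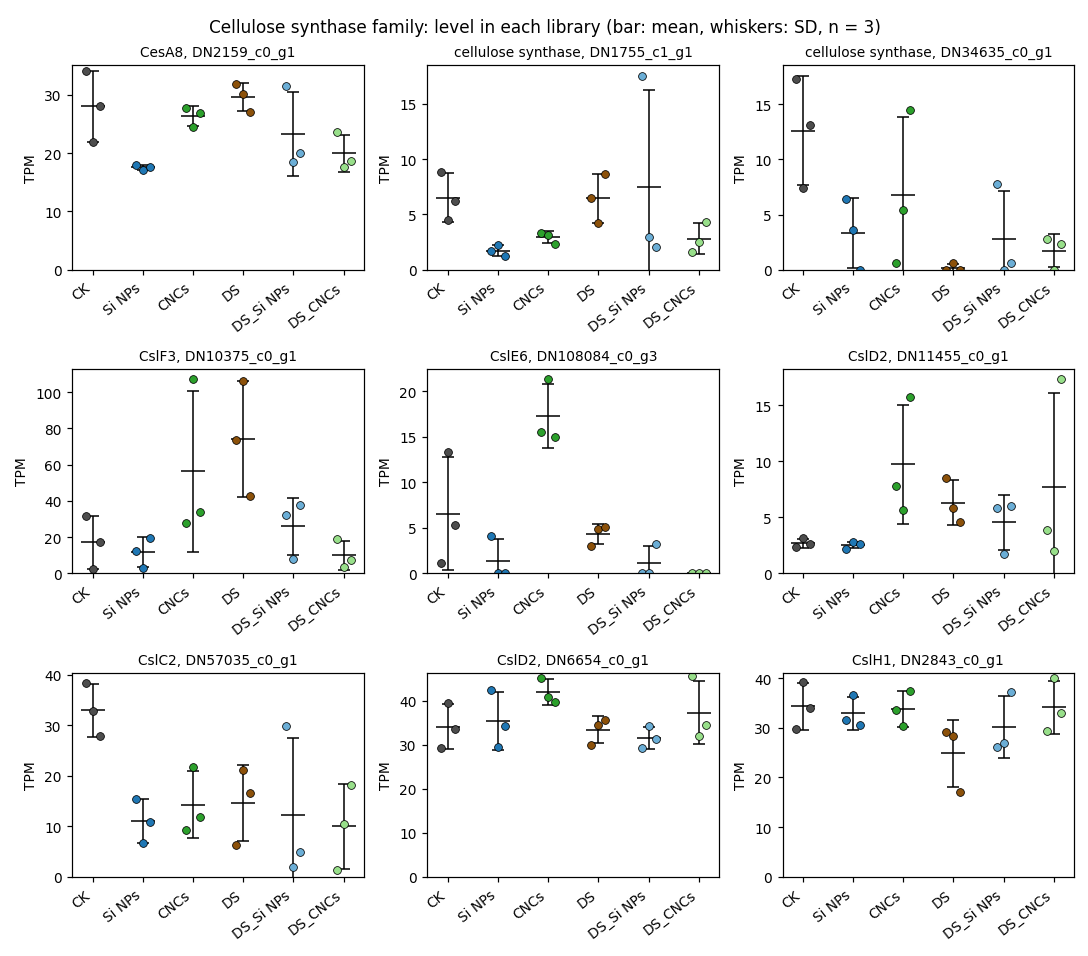
Level (TPM, linear axis from 0) of 9 CesA and Csl unigenes in every library, by group, with the mean as a bar and the SD of 3 libraries as whiskers. CslF3 is 42.5 to 106 TPM in DS and 3.39 to 18.8 TPM in DS_CNCs, CslE6 is 15.0 to 21.4 TPM in CNCs and 0 in DS_CNCs, and CslD2 (DN6654_c0_g1) and CslH1 differ little between groups.

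CslH1, which also makes mixed-linkage glucan in barley, was even. DN2843_c0_g1 (2570 bases) was 29.8, 39.2 and 34.0 TPM in CK and 29.1, 28.4 and 17.1 TPM in DS, below every CK library (-0.32, SE 0.19, adjusted p = 0.377). It was 26.2 to 40.0 TPM in the 12 particle libraries. The other 2 CslH1 pieces were lower: DN25680_c0_g1 lay between 2.12 and 10.6 TPM, and DN34433_c0_g1 was 0, 16.4 and 9.07 TPM within CK alone.

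CslE unigenes, whose product is not assigned here, stood out in CNCs. Summed over 13 unigenes they were 58.7 ± 2.18 TPM in CNCs, 23.0 ± 7.34 TPM in CK, 16.9 ± 1.43 TPM in Si NPs and 22.4 ± 5.52 TPM in DS (SD, n = 3 each). In scaled counts of the 6 tested unigenes the gap was narrower, with 17.9 to 19.5 CPM (counts scaled to library size) in CNCs, 10.7 to 11.7 in CK and 10.4 to 15.3 in the other 4 groups. CNCs therefore lay apart from all other libraries on both scales. Of the 6 tested, 4 had a positive fold change in CNCs against CK and none was called by edgeR in the fit of all 18 libraries.

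Single CslE unigenes were mostly short. CslE6 (DN108084_c0_g3, 213 bases) was 15.5, 21.4 and 15.0 TPM in CNCs, 1.08, 13.3 and 5.29 TPM in CK and 0 in all 3 DS_CNCs libraries (adjusted p = 0.165 for DS_CNCs against CNCs, and 0.0279 with limma on TPM). CslE2 (DN18111_c0_g1, 2414 bases) was the longest, at 8.29, 6.20 and 6.96 TPM in CNCs and 4.02, 4.75 and 4.51 TPM in CK (0.75, SE 0.21, adjusted p = 0.0930). CslE6 DN79689_c0_g1 was 7.03, 9.78 and 5.26 TPM in CNCs and 1.03, 1.02 and 2.08 TPM in CK (2.18, SE 0.95, adjusted p = 0.244), and edgeR on the CK and CNCs libraries alone called it (adjusted p = 0.0374). A CslE6 piece of 349 bases (DN23531_c1_g1), named after its values were seen, was 7.51, 3.72 and 11.1 TPM in CNCs and 0.710, 0.270 and 0 TPM in CK (4.09, SE 1.33, adjusted p = 0.133). It was called by DESeq2, by limma and by edgeR on the CK and CNCs libraries alone (adjusted p = 0.0241, 0.0405 and 0.0359).

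CslD unigenes were led by the even DN6654_c0_g1, at 29.3 to 45.6 TPM over all 18 libraries. The CslD2 unigene DN11455_c0_g1 (3197 bases) was 7.80, 5.67 and 15.7 TPM in CNCs and 2.34, 3.11 and 2.57 TPM in CK (1.76, SE 0.66, adjusted p = 0.179). It was also above CK in DS, at 8.51, 5.82 and 4.54 TPM (1.40, SE 0.65, adjusted p = 0.251). CslD1 (DN46080_c0_g1), named after its values were seen, was lower in DS than in CK and higher in DS_Si NPs than in DS in all libraries, with adjusted p of 0.197 and 0.0567. A CslD2 piece of 207 bases (DN30856_c0_g1) was not tested and was 6.09, 0 and 22.9 TPM in CNCs.

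CslC2, of the xyloglucan family, was 38.4, 32.8 and 27.9 TPM in CK as a piece of 221 bases (DN57035_c0_g1). Si NPs (15.4, 6.69 and 10.9 TPM), CNCs (9.33, 21.8 and 11.8 TPM) and DS (6.34, 21.1 and 16.5 TPM) all lay below CK, with adjusted p of 0.434, 0.497 and 0.639. CslG2 (DN68396_c0_g1, 322 bases) was 0.830, 0 and 0 TPM in DS and 4.79, 2.30 and 11.3 TPM in DS_Si NPs (adjusted p = 0.0707), a difference that DESeq2 called (0.0243). The other 2 CslC pieces (DN85532_c0_g1 and DN120301_c0_g1) and the other 2 CslG pieces (DN68396_c1_g2 and DN47303_c0_g1) averaged 0.741 to 1.77 TPM and were not tested.

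Groups that did not overlap in TPM were more common than calls. In Si NPs vs CNCs, 16 of the 43 were higher in all CNCs libraries (24.1% of all tested unigenes) and 1 was lower (4.27%). In CK vs Si NPs, 11 were lower in all Si NPs libraries (17.8% of all) and 3 higher (13.0%), and the median fold change of the 43 was -0.47, beside 0.07 over all tested unigenes. In CK vs CNCs the median was -0.04 beside 0.08, with 9 higher (22.5%) and 5 lower (8.93%). Under drought the medians were 0.00 for DS_Si NPs and -0.17 for DS_CNCs, beside 0.14 and 0.10. On log2 TPM the median of all unigenes shifted to -0.10 in CK vs Si NPs, 0.23 in CK vs CNCs and 0.37 in Si NPs vs CNCs, beside -0.48, 0.13 and 0.50 for the 71 synthases in that fit. In CK vs CNCs the median of the synthases was 0.0075 on counts without the low-count filter (75 synthases), so its sign was not stable.

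Tissue markers moved with some of these groups. In CNCs the 95 mesophyll markers summed to 69410 to 83680 TPM, below CK (86530 to 152100), with 7 of 87 tested called lower, and 138 markers of dividing tissue summed to 4598 to 5315 TPM, above CK (3210 to 3730), with none called. In DS_CNCs the 38 markers of xylem and fibres summed to 193.4 to 249.5 TPM, below DS (360.8 to 381.7), with 3 of 30 called lower. The 38 epidermis markers summed to 1010 to 1630 TPM in Si NPs and 1036 to 1180 TPM in CNCs, both below CK (1757 to 3594) and each with 4 of 31 called lower. In DS_CNCs they summed to 1026 to 1587 TPM, below DS (1826 to 2914), with 5 called lower and 1 higher. Over all 55979 tested unigenes, 0.0857% were called lower in CK vs CNCs and 0.179% in CK vs Si NPs. In DS vs DS_CNCs 2.32% of all were called lower and 3.48% higher. The 29 root markers were lower in Si NPs (123.5 to 147.0 TPM) and DS (101.0 to 148.2) than in CK (156.4 to 183.8) and higher in CNCs (189.0 to 202.9), with none called. No marker of these lists was at 0 in every library. Their part in the callose synthase, CesA and Csl levels was not tested.

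Callose is removed by beta-glucanases, and of 25 tested unigenes of such enzymes 3 rose and 1 fell in CK vs DS, where 2.01% of all tested unigenes were called. Glucan endo-1,3-beta-glucosidase 8 (DN4909_c0_g1) was 4.08, 5.06 and 4.54 TPM in CK and 22.4, 73.8 and 31.4 TPM in DS. It was 5.31, 3.14 and 12.8 TPM in DS_Si NPs and 3.96, 3.96 and 4.96 TPM in DS_CNCs. It rose with drought (log2 fold change 3.58, SE 0.52, adjusted p = 0.00289) and was lower under drought with Si NPs (-2.64, SE 0.50, adjusted p = 0.0133) and with CNCs (-3.32, SE 0.51, adjusted p = 0.00283). The 5-like unigene DN12856_c1_g1 had the opposite order, at 0.580, 0.570 and 0.620 TPM in DS, 2.51 to 4.65 TPM in DS_Si NPs, 2.32 to 2.96 TPM in DS_CNCs and 2.86 to 3.32 TPM in CK. It fell by 2.18 with drought (adjusted p = 0.00345) and was higher with Si NPs (2.55, adjusted p = 0.00284) and with CNCs (2.08, adjusted p = 0.00301). Without CK 3 the drought calls of DN4909_c0_g1 and DN12856_c1_g1 held (adjusted p = 0.0310 and 0.0262). The DS_Si NPs call of DN4909_c0_g1 was lost without DS 2 (adjusted p = 0.0618), and the DS_CNCs difference of DN12856_c1_g1 was 1.97 without DS 1 and 1.94 without DS_CNCs 3, under the fold threshold. The 14-like unigene DN1758_c0_g1 was 14.0, 2.83 and 8.66 TPM in CK and 37.2, 175 and 14.1 TPM in DS. Its call in CK vs DS (adjusted p = 0.04995) was lost in 5 of 6 fits with 1 library left out (up to 0.306). One of these was the fit without CK 3 (0.203). In each of DS_Si NPs and DS_CNCs against DS, 1 of the 25 was called higher and 2 lower (3.39% and 5.80% of all were called), and with either particle at the higher water content 0 were called.

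Other partners of the synthases gave few calls. Of 13 tested unigenes listed as cellulose partners, 2 were called higher in CK vs DS, where 1.59% of all tested unigenes were. COBRA-like protein 7 (DN6994_c0_g1), of a family that organises microfibrils, rose from 1.04 ± 0.127 to 18.3 ± 6.69 TPM (SD, n = 3, adjusted p = 0.0362). The other was an acidic endochitinase-like unigene (DN33255_c0_g1), listed only for the words chitinase-like. It rose from 2.37 ± 1.12 to 9.23 ± 5.54 TPM (adjusted p = 0.0431). The first was lost without any 1 of the 6 libraries (adjusted p up to 0.168) and the second in 5 of 6 cases (up to 0.178). Of the 10 tested unigenes that supply UDP-glucose, led by a UTP-glucose-1-phosphate uridylyltransferase (DN10652_c0_g2, 64.4 to 101.5 TPM as group means), 0 were called in CK vs DS or in the 4 comparisons of a particle with its control. The same held for 3 unigenes listed as wall regulators. Among them DN6652_c0_g1 (mean 32.5 TPM) is described as a chloroplastic GTP-binding protein and was listed for the word brassinazole. No call was found among 4 plasmodesmata proteins in these comparisons, where 0.377 to 5.80% of all tested unigenes were called.

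Of the plasmodesmata proteins, PLASMODESMATA CALLOSE-BINDING PROTEIN 3-like (DN18469_c0_g1) was 11.2, 8.94 and 11.3 TPM in DS. It was 6.53, 3.12 and 2.88 TPM in DS_Si NPs and 3.25, 3.37 and 3.04 TPM in DS_CNCs, both below DS in all libraries. The differences were past the p threshold and short of the fold threshold, at -1.23 (SE 0.32, adjusted p = 0.0385) for DS_Si NPs and -1.84 (SE 0.33, adjusted p = 0.00525) for DS_CNCs. The DS_CNCs one kept an adjusted p of at most 0.0251 without any 1 of the 6 libraries, and the DS_Si NPs one was lost in 5 of 6 cases (adjusted p up to 0.119).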

How the data were processed

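Per the labels and the study's methods, the authors trimmed reads with cutadapt, built unigenes with Trinity, as no reference genome was used, took descriptions from DIAMOND matches, quantified unigenes with Salmon and compared groups with edgeR. The deposited table gives each unigene an estimated count and a TPM in every library. No comparison column of the authors was used. The estimated counts were rounded to whole numbers, since 452055 of 1974312 deposited values were not whole.

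Unigenes were matched to the words cellulose synthase or callose synthase, and the members and lists were chosen with earlier results of these data known. Counts of 18 libraries passed filterByExpr for 55979 unigenes and, after TMM scaling, were fitted with 1 mean per group in edgeR 4.0.16 (R 4.3.3, quasi-likelihood test), with adjustment over all 55979 and 11 comparisons. The test was checked on simulated data. Named were DN89480_c0_g1, every member called and the 3 members of each family with the highest mean TPM (CesA split into subunits of growing walls, of secondary walls, of no number and number 8). In each partner list the rule took the 2 highest and the called unigenes with the lowest adjusted p, and not all of these are given here. Others of the 75 given with levels are marked where they appear, and the Swiss-Prot matches outside the 75 were named after their values were seen. Tissue and partner lists were chosen by words in descriptions. Alternatives were RLE scaling, DESeq2 1.42.0, limma 3.58.1 on log2(TPM + 0.5), fits on the compared libraries alone, no low-count filter, a replicate block, a log2 threshold of 1 and each library left out.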

Additional observations from a re-analysis of the deposited data

How the results depend on the processing

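RLE scaling changed no count of calls among the 75 synthase unigenes. DESeq2 called 2 in CK vs DS, 2 in CK vs Si NPs, 3 in CK vs CNCs, 3 in DS vs DS_Si NPs (DN68396_c0_g1 was added), 4 in DS vs DS_CNCs, 1 in Si NPs vs CNCs, and 1 and 3 for the interactions of Si NPs and of CNCs with drought. On log2 TPM, limma called 2 in CK vs DS, 2 in CK vs Si NPs, 3 in CK vs CNCs, 2 in DS vs DS_Si NPs (DN13932_c0_g2 in place of DN12371_c1_g1), 2 in DS vs DS_CNCs, 1 in CNCs vs DS_CNCs and 1 for the interaction of CNCs. Fits on the compared libraries alone gave 1 in CK vs DS, 3 in CK vs CNCs, 0 in DS vs DS_Si NPs and 1 for the interaction of CNCs. Without the low-count filter 1 was called in DS vs DS_Si NPs, and a log2 threshold of 1 gave 3 in DS vs DS_Si NPs and 3 in DS vs DS_CNCs. The cause of these shifts was not tested.

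With each library left out in turn, the count ran from 0 to 1 in CK vs CNCs (0 without CK 1 or CK 3), was 1 in every fit of DS vs DS_Si NPs and ran from 0 to 1 for the interaction of CNCs, where DN11455_c0_g1 was called without DS_CNCs 3. It stayed at the reported count in the other 8 comparisons. Calls over all unigenes also changed with a library left out. In CK vs CNCs they ran from 4 to 50, where the full fit gave 211. In CK vs DS they ran from 150 to 996 (full fit 1127), and in DS vs DS_Si NPs from 144 to 2272 (full fit 1895). A call lost in such a fit is therefore not particular to the unigene named.

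Replicate numbers did not pair the libraries, since deviations of libraries with the same number correlated at -0.081 to 0.160. With the replicate block, 1 was called in DS vs DS_Si NPs (DN12371_c1_g1, adjusted p = 0.0605, was lost) and no other count of synthase calls changed.

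At this depth 32 of the 75 unigenes, all shorter than 500 bases, had too few counts for a test.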

Other observations

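A further 19 unigenes had a synthase as their Swiss-Prot match while their description did not name one, and 12 of them were tested. They include abundant unigenes: a CSLE6 match (DN16194_c0_g1) averaged 55.0 TPM over 18 libraries, a callose synthase 9 match (DN855_c0_g1) 29.3 TPM and a CESA3 match (DN8240_c0_g1) 21.7 TPM. The 6 calls among them all fell on a pair of unigenes, DN2159_c0_g2 and DN13932_c0_g1. Both were called in CK vs DS and in the interaction of CNCs with drought, where 2.01% and 1.96% of all tested unigenes were called. Only DN2159_c0_g2 was called in DS vs DS_Si NPs (3.39% of all) and only DN13932_c0_g1 in DS vs DS_CNCs (5.80%).

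A CESA2 match (DN2159_c0_g2, 3631 bases), in the same assembly cluster as CesA8, was 13.4, 26.8 and 16.3 TPM in DS and 2.71, 6.31 and 4.87 TPM in CK. It rose with drought (log2 fold change 2.24, standard error 0.38, edgeR adjusted p = 0.00718) and was lower in DS_Si NPs than in DS (-2.03, standard error 0.38, adjusted p = 0.0133). Its interaction of CNCs with drought was -2.39 (adjusted p = 0.0271). The unigene was also lower in DS_CNCs than in DS (-1.89, standard error 0.38, adjusted p = 0.00928), short of the fold threshold. At this unigene DS_Si NPs and DS_CNCs were not told apart (adjusted p = 0.955). The drought call held without CK 3 (adjusted p = 0.0482). The drought difference was 1.81 without DS 2, the DS_Si NPs one was not called without DS 2, DS_Si NPs 1 or DS_Si NPs 2 (-1.63, -1.95 and -1.77), and the interaction was lost in 7 of 12 cases (adjusted p up to 0.0769).

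A callose synthase 12 match (DN13932_c0_g1, 3831 bases) was 6.26, 7.12 and 3.74 TPM in DS and 0.850, 1.10 and 1.16 TPM in CK. In Arabidopsis callose synthase 12 lays down callose at wounds and infection sites. The unigene rose with drought (2.65, standard error 0.45, edgeR adjusted p = 0.00667) and was lower in DS_CNCs, at 1.01, 0.880 and 1.88 TPM, than in DS (-2.25, standard error 0.44, adjusted p = 0.00845). Its interaction of CNCs with drought was -3.28 (adjusted p = 0.0124). The unigene was also lower in DS_Si NPs than in DS (-1.89, standard error 0.44, adjusted p = 0.0254), short of the fold threshold. DS_Si NPs and DS_CNCs were not told apart here either (adjusted p = 0.859). Its calls held with each library left out, and on log2 TPM the first 2 differences were 1.98 and -1.82, under the fold threshold. A second callose synthase 12 match (DN19293_c0_g1, 4732 bases) had the opposite order, past the p threshold and short of the fold threshold. By edgeR, DN19293_c0_g1 fell by 1.25 with drought (adjusted p = 0.0110). Against DS it was higher in DS_Si NPs (0.92, adjusted p = 0.0366) and in DS_CNCs (1.66, adjusted p = 0.00188).

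A CSLE6 match (DN1532_c0_g1, 2454 bases) was 44.2 ± 1.70 TPM in CNCs and 26.4 ± 8.57 TPM in CK (SD, n = 3), and it was not called.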
